A study of Homo sapiens with 12 samples.

Results

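Lysine acetyltransferases place acetyl groups on histone tails, and 9 genes for the best known of them were followed in T-47D cells, an established human line of luminal, oestrogen receptor positive breast cancer, after treatment with palbociclib, an inhibitor of the cyclin-dependent kinases CDK4 and CDK6. The members are KAT2A, KAT2B, KAT5, KAT6A, KAT6B, KAT7, KAT8, EP300 and CREBBP, 9 of the 19460 genes with a measured RNA level, together with their 101 of 145447 listed splicing events. The family was chosen by measured values as well as by function, with the RNA changes in the authors' deposited table and the change in KAT2A splicing in view. The RNA and splicing values of the 9 genes are therefore a description without a test, whereas the accessibility of their promoters was not used to choose them. Wild type T-47D cells received 1 µM palbociclib or DMSO, the solvent control, for 24 h. Each treatment had 3 replicates for poly(A) RNA-seq and 3 for ATAC-seq, which measures open chromatin. The sample titles call the ATAC-seq replicates biological and give only a replicate number for RNA-seq. A single cell line and a single dose and time were used, so the measurements describe these cultures at 24 h.

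Acetyltransferases act as catalytic subunits of larger assemblies. KAT2A and its paralogue KAT2B (also called GCN5 and PCAF) work in the SAGA and ATAC coactivator complexes on histone H3, KAT5 (TIP60) in the NuA4 complex on histones H4 and H2A, and KAT6A, KAT6B and KAT7 (MOZ, MORF and HBO1) with BRPF and JADE scaffold proteins. KAT8 (MOF) acetylates histone H4 in the MSL and NSL complexes, and EP300 and CREBBP are large paralogous coactivators that acetylate histones at enhancers, including those bound by the oestrogen receptor in breast epithelium. Deacetylases remove the mark and bromodomain and YEATS proteins read it.

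The expression table held all 8 luminal epithelial markers looked for (ESR1, PGR, GATA3, FOXA1, KRT8, KRT18, KRT19 and EPCAM), whose summed level was 5419 to 5939 FPKM (fragments scaled to transcript length and sequencing depth) in the DMSO libraries and 7312 to 8084 FPKM with the drug. Of the leukocyte markers only CD68 was listed, at no more than 0.1735 FPKM, no endothelial marker was listed, and of the fibroblast markers COL1A1 was listed at 23.06 to 25.97 FPKM and COL1A2 at no more than 0.4687 FPKM. The proliferation gene MKI67 had 30.79 ± 1.268 FPKM (SD, n = 3) with DMSO and 1.618 ± 0.1169 FPKM (SD, n = 3) with palbociclib. CCND1, which encodes cyclin D1, had 96.75 ± 2.253 FPKM (SD, n = 3) and 202.7 ± 3.517 FPKM (SD, n = 3). Between 12830062 and 18250496 ATAC reads per library fell in peaks, and reads assigned to splicing events, where a read can count for several events, numbered 85131519 to 123059742 per RNA library. Less RNA per cell and fewer cells of a kind cannot be told apart in these bulk libraries.

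All 9 genes were transcribed, and none was switched on or off by the drug. Group means ran from over 30 FPKM for KAT7, KAT8 and KAT2A to under 6 FPKM for KAT6B. In DMSO the order of the mean levels was KAT7, KAT8, KAT2A, KAT5, KAT6A, CREBBP, EP300, KAT2B and KAT6B, and only the neighbours KAT8 and KAT2A had overlapping ranges over their libraries. KAT7, KAT5, KAT6A and CREBBP were lower with palbociclib, by 0.21 to 0.37 on the log2(FPKM + 1) scale, and their groups did not overlap. KAT2A was the only other member whose groups did not overlap, which held for 54.7% of all genes tested. With a limma fit over all 15869 genes with a mean of at least 0.5 FPKM and an adjusted p under 0.05, 0 of the 9 were called higher, 4 were called lower and 5 were not called. Of all genes tested 43.7% were called, 20.9% higher and 22.9% lower, and nothing is read from the members' count since this contrast was used in choosing them. The median log2 change was -0.09 over the 9 genes and 0.002 over all genes tested.

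**Figure D1:**
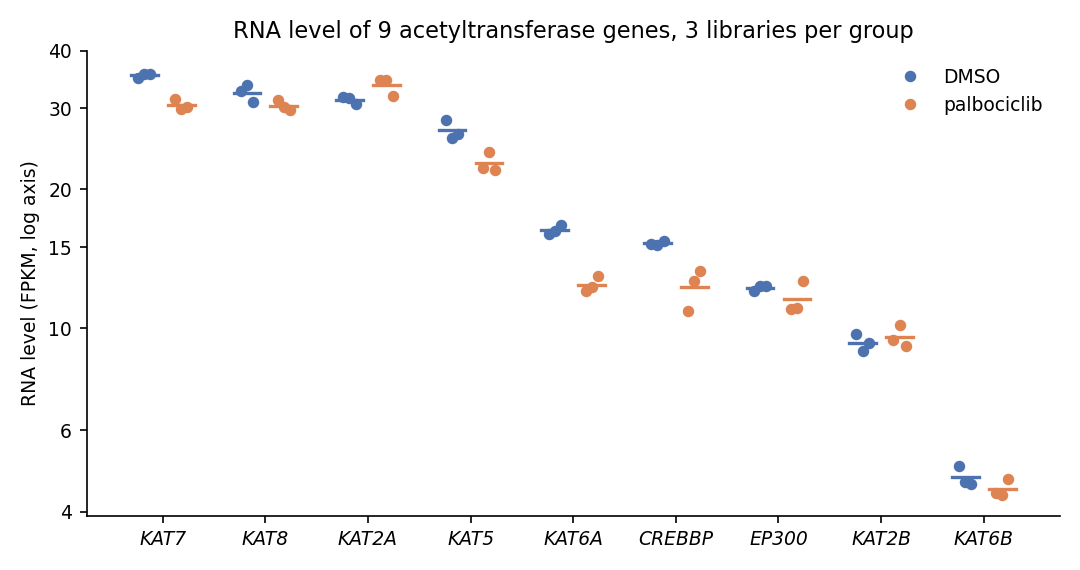
RNA level in FPKM (log axis) of the 9 acetyltransferase genes, ordered by their mean in DMSO, in the 3 DMSO (blue) and 3 palbociclib (orange) libraries, with horizontal lines at the group means. The orange points of KAT7, KAT5, KAT6A and CREBBP lie below all their blue points, and those of KAT2A lie above.

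Among the GCN5 family genes, KAT2A had 31.76, 31.64 and 30.66 FPKM in the DMSO libraries and 34.49, 34.58 and 31.85 FPKM in the palbociclib libraries. The groups did not overlap, although palbociclib replicate 3 lay close to the highest DMSO library. The log2 change of KAT2A was 0.10 ± 0.04 (SE), and it was not called. It was called higher without palbociclib replicate 3 (0.14), after quantile normalization (0.17) and after median centring (0.19). KAT2B, at 9.737, 8.907 and 9.286 FPKM in DMSO and 9.449, 10.18 and 9.147 FPKM with the drug, overlapped between groups, with a log2 change of 0.04 ± 0.06 (SE), or 0.13 after median centring, and was called in neither.

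The MYST family genes are KAT5, KAT6A, KAT6B, KAT7 and KAT8, and KAT5, KAT6A and KAT7 were called lower. These calls are not read as a family pattern. KAT6A, the catalytic subunit of the MOZ complex, had the largest change of the 9 genes. Its level was 15.98, 16.25 and 16.77 FPKM in DMSO and 12.05, 12.27 and 12.95 FPKM with palbociclib, a log2 change of -0.37 ± 0.05 (SE). KAT5 had 28.33, 25.85 and 26.4 FPKM in DMSO and 22.24, 24.17 and 22.01 FPKM with palbociclib, a log2 change of -0.23 ± 0.05 (SE) whose call was lost after median centring (-0.13). Every treated library of both genes lay below every control library. KAT7 had 34.84, 35.6 and 35.67 FPKM in DMSO and 31.43, 29.91 and 30.18 FPKM with palbociclib, a log2 change of -0.21 ± 0.04 (SE) with no overlap. After median centring the changes of KAT7 and KAT6A were -0.11 and -0.27, and both were still called. The paralogue of KAT6A, KAT6B, overlapped between groups at 5.031, 4.628 and 4.581 against 4.393, 4.355 and 4.716 FPKM. KAT8 also overlapped, at 32.64, 33.72 and 30.99 FPKM in DMSO and 31.27, 30.27 and 29.68 FPKM with the drug. The log2 changes of KAT6B and KAT8 were -0.07 ± 0.06 (SE) and -0.09 ± 0.04 (SE), and after median centring they were 0.03 and 0.005.

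The coactivator pair EP300 and CREBBP had different values. CREBBP had 15.26, 15.12 and 15.45 FPKM in DMSO and 10.89, 12.65 and 13.32 FPKM with palbociclib. Its treated libraries were all lower and spread further apart than the controls, with a log2 change of -0.30 ± 0.07 (SE), or -0.20 after median centring. EP300 had 12.05, 12.34 and 12.32 FPKM in DMSO and 11.03, 11.09 and 12.63 FPKM with palbociclib, so that 1 treated library lay above all controls. Its log2 change was -0.08 ± 0.06 (SE), or 0.02 after median centring, and the difference between the changes of the paralogues was not tested. With palbociclib the ranges of KAT6A and CREBBP overlapped, as did those of CREBBP and EP300 and those of KAT7 and KAT8.

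The authors' deposited table of DESeq2 fold changes called the same 4 genes lower and no member higher, where 38.2% of its genes with an adjusted p were called. In the authors' deposited table the log2 fold changes were -0.39 for KAT6A, -0.31 for CREBBP, -0.24 for KAT5, -0.21 for KAT7 and 0.10 for KAT2A. Genes or pseudogenes overlap the intervals of 7 of the 9 members in RefSeq, among them FAM117A at KAT7, RNASEH2C at KAT5 and KAT6A-AS1 at KAT6A, and the counting strand is not given in the sources used here, so reads of overlapping genes may be shared. The genes whose profile over the 6 libraries was closest to that of KAT2A, by Euclidean distance of log2(FPKM + 1) from the DMSO mean over 14163 genes, were MRPL10 (0.016), PLOD1 (0.024) and PKP3 (0.032), against a median distance of 0.393.

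KAT2A transcripts differed between the treatments in the use of a splice site. The gene lies on the minus strand at chr17:42113111-42121367 (GRCh38). An exon that begins 1931 bases from the gene start can end at either of 2 5′ splice sites, giving a long exon (chr17:42119054-42119436) or a short one (chr17:42119245-42119436), both joined to the next exon at chr17:42118297-42118403. The stretch of 191 bases that only the long form holds, chr17:42119054-42119244, is not a multiple of 3 in length, so the 2 forms continue in different reading frames if the stretch is translated.

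The inclusion level, the length-corrected share of the long form, was 0.551, 0.515 and 0.600 in the DMSO libraries and 0.752, 0.742 and 0.723 in the palbociclib libraries. The lowest treated library exceeded the highest control by more than the SD of either group. The mean level was 0.5551 ± 0.0427 (SD, n = 3) with DMSO and 0.7388 ± 0.0147 (SD, n = 3) with palbociclib, a difference of 0.184.

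The counts behind these levels were large, 722 to 1111 reads per library. Reads of the long form numbered 618, 677 and 588 with DMSO and 949, 993 and 970 with palbociclib. Reads of the short form, which come from its junction alone, numbered 172, 218 and 134 with DMSO and 107, 118 and 127 with palbociclib. Long-form reads were thus more numerous and short-form reads fewer in every treated library than in every control. The effective lengths used in the level were 290 bases for the long form and 99 bases for the short form, and reads lying within the 191-base stretch count for the long form, so that unspliced RNA there would be counted with it. The level recomputed from these reads differed from the deposited one by no more than 0.0005.

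**Figure D2:**
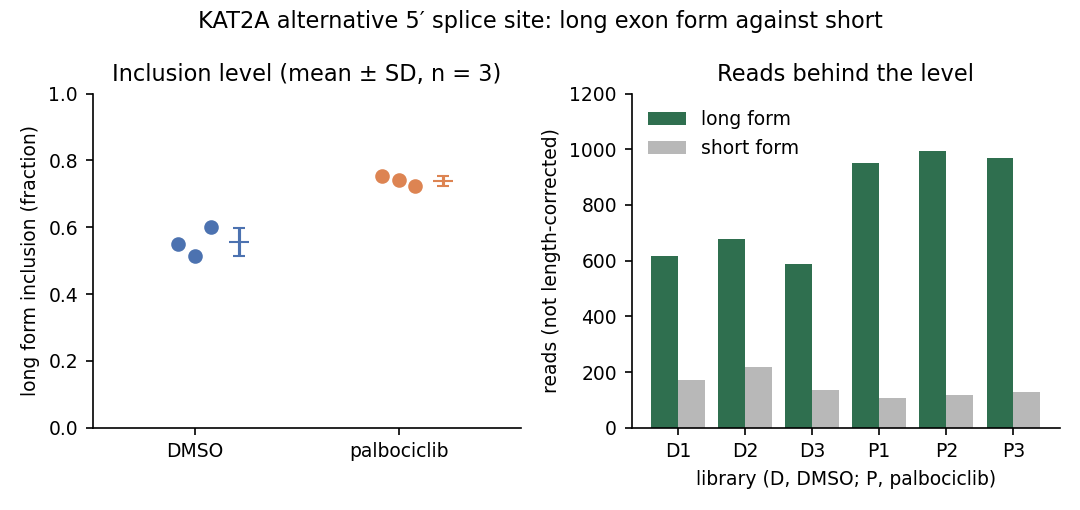
Left, inclusion level of the long KAT2A exon form (fraction of transcripts, axis from 0 to 1) in each library, with the mean ± SD of 3 libraries beside the points. Right, reads assigned to the long (green) and short (grey) form in each of the 6 libraries; the treated libraries have 949 to 993 long-form reads against 588 to 677 in the controls.

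The authors' deposited table gave this event an FDR of 3.325e-09, one of the values that chose the gene. An edgeR fit of inclusion and skipping reads put the change in the odds of the long form at 1.19 on the log2 scale and called it, and it was called in every alternative that refitted it, with values of 1.06 to 1.31. Of 2640 alternative 5′ splice site events tested genome-wide, 11 (0.417%) were called, 9 of them toward higher inclusion, and the median size of a difference was 0.025. By size of the difference the KAT2A event ranked 72 of all 2640, and 6 of the 1413 with a mean of at least 100 reads. The calls of the KAT2A event and its ranks describe a member chosen for this change in the same reads, and they are not a test.

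Multiplying the KAT2A level in each library by the share of each form gives an estimate of each form's amount. The long form was at 17.5, 16.28 and 18.39 FPKM with DMSO and 25.92, 25.65 and 23.02 FPKM with palbociclib. The short form was at 14.26, 15.36 and 12.27 FPKM with DMSO and 8.562, 8.928 and 8.83 FPKM with palbociclib. Neither form overlapped between groups, and the log2 ratio of the means was 0.52 for the long form and -0.67 for the short form, against a log2 change of 0.10 for the gene. The estimate applies 1 pair of splice sites to the whole transcript and treats the FPKM as unaffected by the form. Both amounts are computed from the inclusion level for which the gene was chosen, so their separation is not a further result.

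The other 7 listed KAT2A events, 1 further alternative 5′ splice site and 6 skipped exons, had a minor form below 5% of reads and were not tested. The skipped exon at chr17:42117907-42118017, with a mean of 547.2 reads, had a level of 0.9843 with DMSO and 0.9659 with palbociclib, and an FDR of 0.1922 in the authors' deposited table. No retained intron was listed for the gene.

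Of the 101 member events, 29 were tested, having on average 20 or more reads in each library and at least 5% of them from the minor form, 3 had too few reads and 69 had a rarer minor form. The 64 skipped exons gave only 6 of the 29 tested events, all 10 mutually exclusive exon pairs were tested, and the rest were 6 alternative 5′ splice sites, 6 retained introns and 1 alternative 3′ splice site. One of the 29, in KAT2A, was called by edgeR, where 0.35% of all 37445 tested events were called. An FDR under 0.05 in the authors' deposited table was given to 2 of the 29 and to 3.82% of all tested events, the second being a retained intron of KAT6B. Groups did not overlap in 5 of the 29 and in 13.7% of all tested events. The splicing contrast was used in choosing the genes, and these shares are not read further.

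KAT6B, which has the lowest RNA level of the 9 genes, had 9 tested events, and 6 of them lie in 1 stretch of exon and intron on the plus strand, chr10:74975399-74977437. These 6 share reads and are not independent of each other. In the event with the largest difference among those with at least 50 reads, a choice between 5′ splice sites 549 bases apart (long exon chr10:74975399-74976330, short exon chr10:74975399-74975781), the level of the long form was 0.519, 0.504 and 0.662 with DMSO and 0.486, 0.234 and 0.344 with palbociclib. The treated libraries were all lower, but replicate 1 lay close to the lowest control. The mean was 0.5615 ± 0.0871 (SD, n = 3) with DMSO and 0.3549 ± 0.127 (SD, n = 3) with the drug, the authors' deposited table gave an FDR of 0.06596, and edgeR did not call it. The retained intron that follows the long exon had levels of 0.226, 0.131 and 0.159 with DMSO and 0.324, 0.422 and 0.400 with palbociclib, from 25 to 58 reads per library. Its FDR in the authors' deposited table was 0.02905, and edgeR did not call it. It lies outside the rule for named events by its read count and was chosen after its values were seen.

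Retention measured against splicing from the other 5′ splice sites of the same KAT6B stretch had differences of -0.132 and -0.103, and the groups overlapped in both. The difference of the retained intron was 0.21, and the longest alternative 5′ splice site choice, 876 bases, had a difference of -0.121 from levels of 0.6106 ± 0.0504 (SD, n = 3) and 0.4893 ± 0.0599 (SD, n = 3). The signs belong to different ratios and are not to be compared directly. In the 3 events whose groups did not overlap, the form counted as spliced from the end of the long exon had the smaller share with palbociclib. In the splice site choices among them, reads lying within the extra stretch count for that form. RNA that retains the intron would be counted with it there, so only the retained intron event measures splicing from that site directly. Reads spliced from that site numbered 10, 17 and 14 with DMSO and 4, 3 and 7 with palbociclib, which is few, and edgeR called none of the 3.

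**Figure D3:**
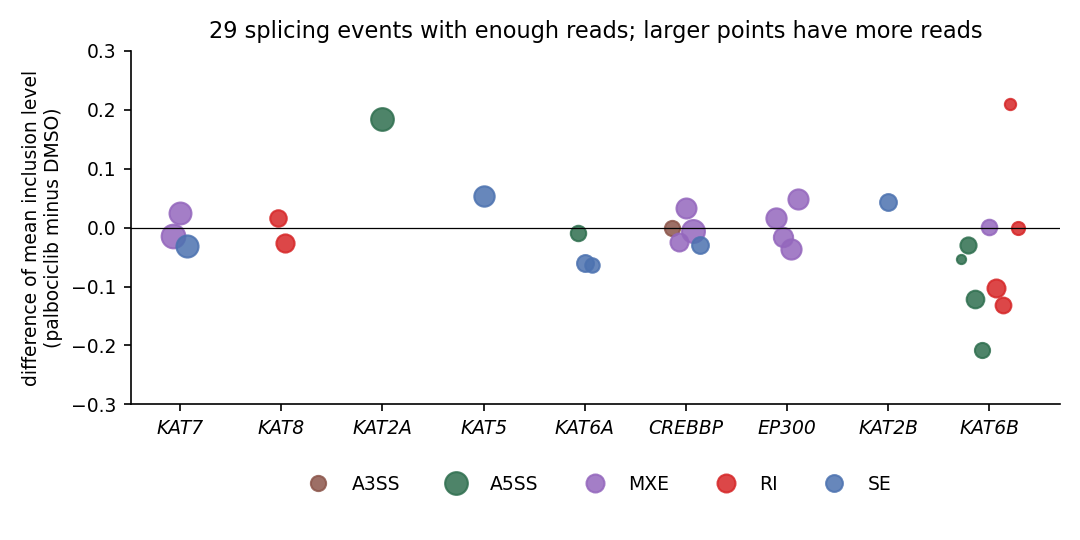
Difference of mean inclusion level (fraction, palbociclib minus DMSO) for the 29 tested splicing events of the 9 genes, coloured by event type (A3SS and A5SS, alternative 3′ and 5′ splice sites; MXE, mutually exclusive exons; RI, retained intron; SE, skipped exon), with larger points for more reads. Only KAT2A (0.184) and KAT6B (-0.207 to 0.21) have points beyond 0.1 from 0.

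In the other 7 genes the differences of the tested events were small. KAT2B had the only tested event among them whose groups did not overlap, an exon of 85 bases at chr3:20148403-20148487 with levels of 0.897, 0.864 and 0.899 in DMSO and 0.907, 0.914 and 0.971 with palbociclib. The difference of 0.044 rested on 3 to 17 skipping reads per library and the authors' deposited table gave an FDR of 0.5755. KAT5 had 1 tested event, an exon of 156 bases at chr11:65713348-65713503 with levels of 0.3777 ± 0.0548 (SD, n = 3) and 0.4316 ± 0.0285 (SD, n = 3), which overlapped. The largest differences in either direction were 0.063 in size for KAT6A, 0.049 for EP300, 0.033 for CREBBP, 0.032 for KAT7 and 0.027 for KAT8. KAT5, KAT7, KAT6A and CREBBP, which had lower RNA levels, therefore had no tested event with a difference above 0.063.

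Chromatin accessibility at the members, measured in separate libraries, did not pass the test in any peak. The 38121 peaks include 18 that overlap a member or lie within 1 kb of it, at 8 of the 9 genes, and KAT5 has none. Of these, 9 lie within 1 kb of the start of 7 members. The edgeR quasi-likelihood test called 0 of the 18 at an adjusted p under 0.05, where 11.9% of all peaks were called, and DESeq2 called 0, where 6.59% were called. An unadjusted p under 0.05 was found in 2 of the 18, against 25.4% of all peaks, and groups did not overlap in 3 of the 18, against 28.3%. Of the 18 log2 changes 11 were below 0, and their median was -0.035, against 0.004 for all peaks.

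Promoter windows of 250 bases were read from RefSeq (GRCh38.p14), where 7 of the 9 members have an entry, some with several windows. Not all of them lie before the gene start used here. The windows of KAT5 and KAT6B, and the CREBBP window at chr16:3880121-3880370, lie mostly or wholly inside the gene. In RNA level KAT7 and CREBBP were called lower, and KAT2A and EP300 were not called. A window of each of these genes lies wholly inside a measured promoter peak. Those of KAT2A, KAT7 and CREBBP are shown as examples. They run 5′ to 3′ on the gene's strand and end at the base before the start, at chr17:42121368-42121617 (minus) for KAT2A, chr17:49788431-49788680 (plus) for KAT7 and chr16:3880714-3880963 (minus) for CREBBP. Capitals mark a match to the ETS-type motif CCGGAAGT.
KAT2A: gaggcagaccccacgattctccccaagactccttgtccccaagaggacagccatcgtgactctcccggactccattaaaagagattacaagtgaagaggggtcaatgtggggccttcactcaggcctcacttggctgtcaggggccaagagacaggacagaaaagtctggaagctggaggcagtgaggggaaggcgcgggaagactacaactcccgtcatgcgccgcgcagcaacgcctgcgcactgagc
KAT7: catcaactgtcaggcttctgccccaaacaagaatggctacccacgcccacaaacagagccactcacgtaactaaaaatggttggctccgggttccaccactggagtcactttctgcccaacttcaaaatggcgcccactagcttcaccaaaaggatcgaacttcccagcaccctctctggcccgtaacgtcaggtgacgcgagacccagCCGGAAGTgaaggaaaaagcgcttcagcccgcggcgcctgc
CREBBP: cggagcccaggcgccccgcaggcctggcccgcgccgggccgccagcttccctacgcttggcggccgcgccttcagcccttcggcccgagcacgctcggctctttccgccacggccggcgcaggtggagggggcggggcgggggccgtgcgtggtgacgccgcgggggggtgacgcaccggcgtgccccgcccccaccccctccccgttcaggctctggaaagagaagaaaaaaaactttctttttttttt

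The windows differ in base composition, with 58.8% G and C for KAT2A, 56.4% for KAT7 and 72.4% for CREBBP, against a median of 58.0% over 35116 promoter windows. E2F transcription factors, which RB holds in check until CDK4 and CDK6 phosphorylate it, bind sites with the core TTT, then 2 bases that are each C or G, then CGC (TTTCCCGC, TTTCGCGC, TTTGCCGC and TTTGGCGC, searched on both strands). None of the 10 windows of the 7 members holds these letters, as against 2.79% of all windows. The motif CCGGAAGT, on either strand, was added after the sequences had been seen. It occurs in windows of 2 members, KAT7, where it starts 41 bases before the gene start, and KAT5, and in 3.42% of all windows.

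At the KAT2A promoter, the peak at chr17:42121152-42121728 had 35.54, 33.74 and 37.28 CPM (counts scaled to the library's reads in peaks) with DMSO and 32.48, 34.55 and 35.4 CPM with palbociclib. The groups overlapped, with a log2 change of -0.06 and an edgeR adjusted p of 0.7015. A second KAT2A peak, chr17:42116800-42117140, lies 1914 bases downstream of the alternatively spliced stretch. It had 21.71 ± 1.767 CPM (SD, n = 3) with DMSO and 22.5 ± 1.596 CPM (SD, n = 3) with the drug, a log2 change of 0.05 with an edgeR adjusted p of 0.7733.

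The KAT7 promoter peak, chr17:49788415-49789381, was the most accessible of the 18, at 331.1, 317.9 and 349.9 CPM with DMSO and 322.0, 318.1 and 296.7 CPM with palbociclib. Its groups overlapped, with a log2 change of -0.09, an unadjusted p of 0.03359 and an edgeR adjusted p of 0.1525. A peak inside KAT7, chr17:49815571-49816315, went the other way, at 18.79, 18.54 and 17.26 CPM with DMSO and 21.57, 21.63 and 19.51 CPM with the drug. Its groups did not overlap, with a log2 change of 0.20, an unadjusted p of 0.04407 and an edgeR adjusted p of 0.1819, and it is named here because its values stood out among the 18.

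The CREBBP promoter peak, chr16:3880543-3881524, had 51.5, 48.22 and 47.85 CPM with DMSO and 43.2, 46.18 and 47.01 CPM with palbociclib. The treated libraries were all lower, by a narrow margin, with a log2 change of -0.11 and an edgeR adjusted p of 0.2994. Of the EP300 promoter peaks, the one at chr22:41091202-41092113 changed by -0.10 on the log2 scale (edgeR adjusted p = 0.226) and the one at chr22:41092328-41092802 had 25.4 ± 1.195 CPM (SD, n = 3) with DMSO and 25.4 ± 1.571 CPM (SD, n = 3) with the drug (edgeR adjusted p = 0.9974). KAT6A, the member with the largest RNA difference, had a promoter peak at 26.3 ± 1.219 CPM (SD, n = 3) with DMSO and 28.1 ± 1.282 CPM (SD, n = 3) with the drug, a log2 change of 0.10 with an edgeR adjusted p of 0.5123. The KAT2B peak centred 1128 bases into the gene had 12.97, 15.47 and 15.78 CPM against 16.24, 17.14 and 17.88 CPM, which do not overlap, with a log2 change of 0.21 and an edgeR adjusted p of 0.2305. The peak before the KAT2B start and the KAT8 promoter peak had log2 changes of 0.04 and 0.02 and edgeR adjusted p values of 0.7899 and 0.868. KAT6B had no promoter peak and 3 within the gene, with log2 changes from -0.20 to -0.03. A p that misses the threshold does not show that accessibility was equal in the 2 groups.

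**Figure D4:**
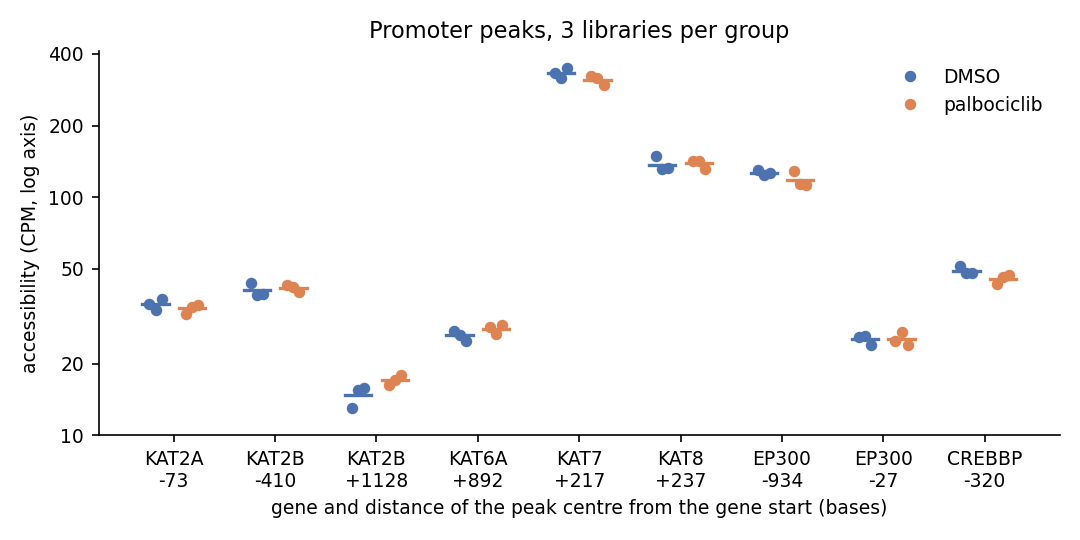
Accessibility in CPM (log axis) of the 9 promoter peaks at 7 members in the 3 DMSO (blue) and 3 palbociclib (orange) ATAC libraries, with lines at the group means and the distance of the peak centre from the gene start in bases under each gene. The groups overlap in all but the second KAT2B peak and the CREBBP peak, and no peak was called.

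The partners of these enzymes, the enzymes that oppose them and the proteins that read the mark were taken from 8 lists of 103 tested genes. The lists were chosen with earlier results of these data known, so their counts are given as description. Over all lists 39 genes were lower and 14 higher at a limma adjusted p under 0.05, with a median log2 change of -0.10, where 22.9% and 20.9% of all genes were lower and higher. These calls are relative to the scaling of the deposited FPKM. Of all called genes 47.72% were higher in the values as deposited, 61.63% after quantile normalization and 68.93% after median centring, which moved the median of all genes to 0.057 and 0.098. Of the list genes 28 were lower and 20 higher after quantile normalization, and 25 lower and 24 higher after median centring, so the excess of lower calls over higher ones depends on the scaling. The proliferation gene MKI67 was at 1.618 FPKM in the treated group beside 30.79 FPKM in the controls, and its part in these results was not tested.

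Of the 16 genes of the KAT5 complex NuA4 11 fell, 0 rose and 5 did not pass the test, with a median log2 change of -0.21, and after quantile normalization 8 were lower and 2 higher and after median centring 6 were lower and 3 higher. The subunit YEATS4, an acetyl-lysine reader, fell from 32.26 ± 0.8099 to 18.8 ± 1.598 FPKM (SD, n = 3), a log2 change of -0.75 ± 0.06 (SE) (limma adjusted p = 1.893e-05). ACTL6A, an actin-related subunit shared with other chromatin remodelling complexes, fell from 146.0 ± 7.544 to 87.22 ± 0.6638 FPKM (SD, n = 3), a log2 change of -0.74 (limma adjusted p = 1.919e-06). As deposited, the large scaffold TRRAP, the ATPases EP400, RUVBL1 and RUVBL2, and BRD8, EPC2, ING3, MORF4L1 and MRGBP were also called lower. They complete the 11 and lie outside the rule for named genes. Which of the 11 lost the call after rescaling is not given here. KAT5 itself had a log2 change of -0.23, or -0.13 after median centring, where it was not called. A shared change of KAT5 and these genes was not tested.

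In the SAGA and ATAC complexes that hold KAT2A and KAT2B, 10 of 25 genes fell, 4 rose and 11 did not pass the test, with a median log2 change of -0.10. After quantile normalization 7 were lower and 4 higher, and after median centring 7 were lower and 6 higher with a median of -0.007. TADA2A, the adaptor of the ATAC complex, fell from 14.02 ± 0.7278 to 9.354 ± 0.8434 FPKM (SD, n = 3), a log2 change of -0.54 (limma adjusted p = 0.0003768). Its SAGA counterpart TADA2B rose from 12.14 ± 0.6873 to 14.77 ± 0.612 FPKM (SD, n = 3), a log2 change of 0.26 (limma adjusted p = 0.004888). Both kept their calls and directions in every alternative fitted. ATXN7L3, of the SAGA deubiquitinase module, rose by 0.19 (limma adjusted p = 0.008609). POLE3, a histone-fold protein that is also a subunit of DNA polymerase epsilon, fell from 74.6 ± 1.624 to 45.19 ± 0.1985 FPKM (SD, n = 3), a log2 change of -0.71 (limma adjusted p = 4.521e-07).

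Of the 9 scaffold and accessory genes of the KAT6A, KAT6B and KAT7 complexes, 5 fell, 1 rose and 3 did not pass the test, with a median log2 change of -0.22. Either rescaling left 4 lower and 1 higher, with medians of -0.128 (quantile normalization) and -0.126 (median centring). JADE1, a scaffold that directs KAT7 to histone H4, had a log2 change of -0.48 ± 0.07 (SE, limma adjusted p = 0.0007369), and BRPF1, the scaffold of KAT6A, one of -0.30 ± 0.06 (SE, limma adjusted p = 0.003884). ING4, a reader of methylated histone H3, had 9.757, 9.596 and 9.164 FPKM with DMSO and 12.32, 11.92 and 11.77 FPKM with the drug, and rose by 0.31 (limma adjusted p = 0.0009629). The KAT8 complexes MSL and NSL divided evenly, with 2 of 10 genes lower (HCFC1, -0.33, and KANSL2, -0.15), 2 higher (OGT, 0.21, and PHF20, 0.16) and 6 that did not pass the test. PHF20 lost its call without palbociclib replicate 2 (0.14) and KANSL2 after quantile normalization (-0.073) and median centring (-0.056). Their median log2 change of -0.03 turned positive after quantile normalization (0.066) and median centring (0.067).

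Among 9 other acetyltransferase genes 2 fell, 1 rose and 6 did not pass the test. HAT1, which acetylates newly made histone H4 before its deposition on replicated DNA, had 64.96, 61.2 and 65.85 FPKM with DMSO and 30.56, 30.6 and 31.13 FPKM with palbociclib. Its log2 change of -1.03 ± 0.04 (SE, limma adjusted p = 1.258e-07) was larger in size than that of any of the 9 members. The nuclear receptor coactivator NCOA2 had a log2 change of -0.26 (limma adjusted p = 0.00741), and NCOA3 one of 0.12 (limma adjusted p = 0.0275). NCOA2 lost its call after quantile normalization (-0.16), and NCOA3 without DMSO replicate 2 or 3 or palbociclib replicate 1 or 2 (0.11 to 0.12).

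Deacetylases were the only list with a median above 0 in the values as deposited (0.05), with 4 of 18 genes higher, 2 lower and 12 that did not pass the test. After quantile normalization 7 were higher and 2 lower (median 0.129), and after median centring 7 were higher and 1 lower (median 0.144). SIRT4, a mitochondrial sirtuin, rose from 2.437 ± 0.2867 to 3.994 ± 0.5535 FPKM (SD, n = 3), a log2 change of 0.54 (limma adjusted p = 0.002658), and HDAC7 rose by 0.35 (limma adjusted p = 0.001108). SIRT1 and HDAC2 fell, with log2 changes of -0.36 (limma adjusted p = 0.002885) and -0.22 (limma adjusted p = 0.003853), and HDAC2 lost its call after median centring (-0.12). Of 10 tested acetyl-lysine readers 5 fell, 1 rose and 4 did not pass the test. BRD7 had a log2 change of -0.28 (limma adjusted p = 0.0008355), and MLLT3 one of 0.21 (limma adjusted p = 0.03029), a call lost without DMSO replicate 1 or 3 or palbociclib replicate 1 or 2 (0.17 to 0.23). Without palbociclib replicate 1 only 3 readers were called, and after either rescaling 3 were lower and 1 higher. Of 6 genes that supply acetyl-CoA 2 fell (DLAT, -0.27, and ACLY, the enzyme that makes acetyl-CoA from citrate, -0.10), 1 rose (PDHB, 0.10) and 3 did not pass the test. The call of PDHB was lost without any of DMSO replicates 1 and 2 and palbociclib replicates 1, 2 and 3 (0.078 to 0.11), and those of PDHB and ACLY without the intensity trend. After median centring ACLY was at -0.007 and not called, and the list had 1 gene lower and 2 higher with a median of 0.066.

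**Figure D5:**
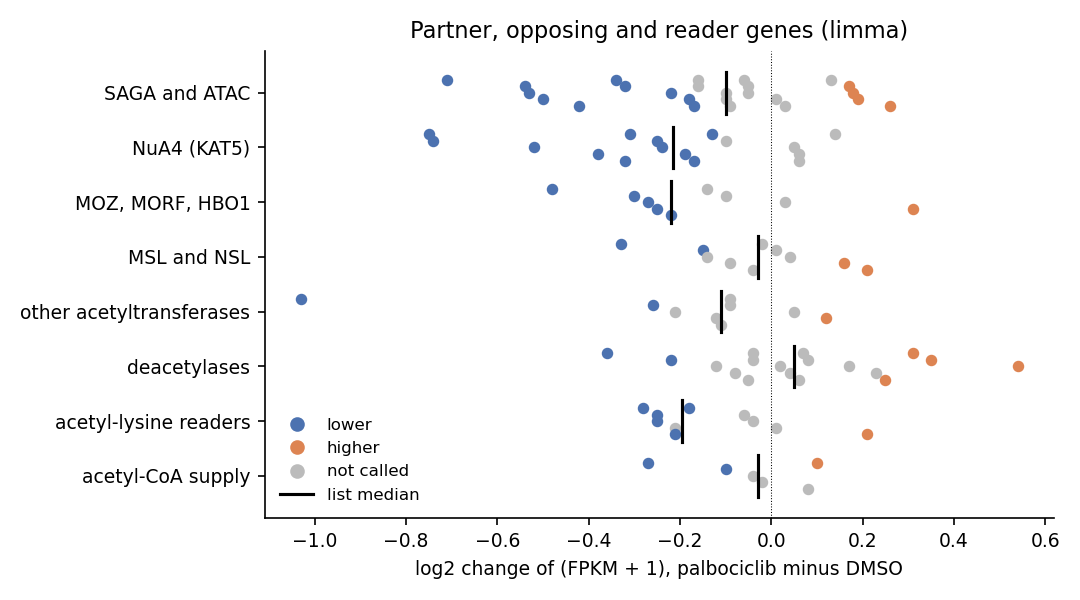
Log2 change of (FPKM + 1), palbociclib minus DMSO, of each tested gene in the 8 lists (1 point per gene; blue, lower; orange, higher; grey, not called by limma), with a black line at the list median. The NuA4 list has its median at -0.21 and no gene called higher in the values as deposited, with 2 called higher after quantile normalization and 3 after median centring, and HAT1 is the point at -1.03.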

How the data were processed

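Poly(A) RNA-seq and ATAC-seq of T-47D cells were used, with 3 replicates per treatment in each assay, grouped by the labels. The 9 members, the gene lists and the tests were chosen with earlier results of these data known. FPKM values were deposited by the authors, 1 column per library. Per the submitters' processing notes fastp 0.23.2, STAR 2.7.10b, Salmon 1.10.2 and DESeq2 1.44.0 were among the tools and GRCh38 the build for RNA, with no role given. The authors' deposited table of the contrast holds a mean normalized count (a signal value), log2 fold changes with their standard errors, p-values, and a test statistic (a score). The splicing tables, as their headers show, give reads of either form for each event, the inclusion level, the level difference (a score), and a p-value and FDR, per the file headers. The version of the splicing tool is not given in the sources used here. Peak counts were made by the authors with featureCounts 2.0.6, per the file headers, over 1 peak set for all ATAC libraries.

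RNA levels were compared with limma 3.58.1 (R 4.3.3, intensity trend) on log2(FPKM + 1) for genes with a mean of at least 0.5 FPKM, so that changes of low genes are understated. Peaks passing filterByExpr were scaled by TMM and compared by quasi-likelihood in edgeR 4.0.16. Splicing reads were compared with the same test per event type, with a term per library and a form-by-treatment term, for events averaging 20 or more reads whose minor form made up 5% or more. All p values were Benjamini-Hochberg adjusted over all features tested (events within type). DESeq2 1.42.0 was an alternative for peaks and events. The scripts were tested on simulated data. Alternatives covered the pseudocount, filters, scaling, trend, flank, block and each library left out. Named were all members; from each list up to 2 genes per direction with the largest change, an adjusted p under 0.05, a mean of at least 1 FPKM and groups that do not overlap; promoter peaks and called peaks of members; called KAT2A events; the largest non-overlapping event of each other member with at least 50 reads; and the 3 genes most like KAT2A. Of the genes so named, 1 is not reported here.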

Additional observations from a re-analysis of the deposited data

How the results depend on the processing

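The number of members called in RNA level, 4, was 4 to 5 with 1 library left out, 5 after quantile normalization and 4 after median centring, where KAT5 (-0.13) lost its call and KAT2A gained one. The list genes called ranged from 44 to 53 without 1 library, the peaks stayed at 0 called in all alternatives and the edgeR splicing count stayed at 1, whereas the authors' FDR gave 2. Several values near 0 changed sign. KAT6B became 0.002 after quantile normalization and 0.03 after median centring, EP300 0.03 and 0.02, and KAT8 0.005 after median centring. KAT2B was -0.001 to 0.069 with 1 library left out. The KAT8 promoter peak was -0.019 to 0.077 with 1 library left out. The EP300 peak at the start was 0.023 with library totals, 0.019 with a smoothed offset and 0.001 with the replicate block, and -0.051 to 0.035 with 1 library left out. The causes were not tested.

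Replicate numbers are shared by the treatments but are not stated to mark a shared culture. The correlations of same-numbered libraries' deviations from their group means were 0.106, -0.005 and 0.088 for RNA, 0.005, 0.039 and -0.025 for ATAC and 0.011, -0.002 and 0.018 for splicing, so the numbers were not taken to pair the libraries, and not every library correlated best with its own number. With the replicate block in the fit 4 members, 54 list genes, 0 peaks and 1 event were called. No depth can be read from FPKM, and 3 libraries per group limit the precision.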
